A study of Mus musculus with 16 samples.

Results

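The collagen genes were examined in the RNA of EpCAM+ cells sorted from the distal colon of 16 mice. A gene was counted as a collagen if its symbol was written as Col, a number, the letter a and another number, and 44 of the 22396 gene symbols met this rule in both deposited tables. They were represented by 47 of 28988 listed transcripts. By the architecture of the protein, 11 were fibrillar, 9 fibril-associated, 8 basement-membrane and 6 beaded-filament collagens, 2 were epithelial and anchoring collagens, and 8 were of other kinds.

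All 16 mice carried the loxP-flanked Tnfr2 alleles (Tnfr2-f/f). Controls carried no Cre, whereas the mice labelled knockout (Vil1::Cre;Tnfr2-f/f) also carried a Cre recombinase driven by the villin promoter, which is active in intestinal epithelium, so that stromal cells kept the gene. The groups were 4 controls and 5 mice labelled knockout on water, and 3 controls and 4 mice labelled knockout given dextran sulfate sodium (DSS), which injures the colonic epithelium. By the paper, mice were 8 weeks old, DSS was given at 3.5% for 6 days, and cells were taken at d 12 after DSS or at d 0 without injury. The sample labels instead give 3% as the DSS dose, and d 12 as the time of dissection for all mice, those on water included. The 7 mice given DSS were females housed in 2 cages (c and d), whereas on water the 4 mice of cage a were male and the 5 of cage b female. No cage held both treatments, and thus treatment cannot be told apart from cage or, across all mice, from sex.

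Collagens are secreted proteins whose chains wind into a triple helix, and each chain is encoded by a gene of its own. In the colon, fibroblasts of the lamina propria make most of the fibrillar collagens (types I, III and V), which bundle into the cables that bear tension, together with the beaded filaments of type VI. Type IV forms the sheet-like network of basement membranes, on which the epithelium and the vessels rest. Type VII anchors such a membrane to the stroma, and type XVII spans the epithelial membrane in hemidesmosomes. Epithelial cells take up collagen signals by integrins and discoidin domain receptors.

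Values were TPM, a read abundance corrected for transcript length and scaled to a fixed total, so that levels of different genes can be compared. Each treatment was a table of its own, scaled apart from the other, and levels set across tables were therefore not tested. On a scaling common to all mice, factors lay between 1.13 and 1.24 in DSS-treated mice and between 0.905 and 0.94 in water-treated mice. *Epcam*, the surface protein used for the sort, had between 566 and 1017 TPM, and all 10 epithelial markers examined had a mean of at least 1 TPM in both tables. Markers of other cells were also present. Of 12 fibroblast markers, 9 had a mean of at least 1 TPM in each table, as did 10 (water) and 9 (DSS) of 11 endothelial markers, 6 and 5 of 8 listed smooth muscle and pericyte markers, and 6 of 9 leukocyte markers in both. None of 5 enteric glia markers did. No marker of any list was at 0 in every mouse. *Tnfrsf1b*, the targeted gene, was not lower in the libraries labelled knockout after DSS (16.5 ± 4.95 TPM in controls and 18.4 ± 6.02 TPM in mice labelled knockout, SD, n = 3 and 4) and had 13.9 ± 2.06 and 11.8 ± 2.30 TPM on water (n = 4 and 5). Its log2 fold changes were 0.14 and -0.23, with adjusted p = 1.00 and 0.865 by limma. The study deletes 1 exon of the gene and its value covers the whole transcript, which limits it as a check of the labels.

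Collagen RNA was a small part of these libraries, between 0.0141% and 0.0836% of the listed TPM of a mouse. That listed total, over principal isoforms only, ran from 487469 to 861109 TPM and was highest in a mouse labelled knockout on water. Of the 44 genes, 20 reached a mean of 1 TPM in at least 1 of the 4 groups and 24 did not. The 20 were 6 fibrillar (*Col1a1*, *Col1a2*, *Col3a1*, *Col5a1*, *Col5a2*, *Col5a3*), 4 basement-membrane (*Col4a1*, *Col4a2*, *Col15a1*, *Col18a1*), 4 beaded-filament (*Col6a1*, *Col6a2*, *Col6a3*, *Col6a5*), 3 fibril-associated (*Col12a1*, *Col14a1*, *Col16a1*) and 3 other collagens (*Col8a1*, *Col23a1*, *Col28a1*).

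Both collagens of the epithelium itself were near the floor. *Col7a1*, the chain of anchoring fibrils, lay between 0.0664 and 0.475 TPM in the 16 mice, and *Col17a1*, the hemidesmosome collagen, between 0 and 0.263 TPM, with 7 mice at 0. *Col2a1* and *Col9a1*, cartilage collagens, and *Col26a1* were listed at 0 in every mouse. Of the other low genes, *Col4a5* (up to 1.71 TPM), *Col27a1* (1.39), *Col6a4* (1.30) and *Col13a1* (1.27) passed 1 TPM in 1 to 6 mice each, and 20 of the 24 never did. Neither *Col4a3* nor *Col4a4*, the chains of the kidney and lung type IV network, exceeded 0.171 TPM.

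The order of the abundant collagens was stable. *Col3a1*, the chain of type III collagen, was the highest collagen in all 16 mice, and *Col1a2* was the second in all 16. The place below was taken by *Col6a1* in 9 mice, *Col1a1* in 4 and *Col4a1* in 3. Both type I chains enter the same trimer, but *Col1a1* had only 0.39 to 0.71 of the TPM of *Col1a2* within a mouse, below it in all 16 mice. For *Col1a1*, 92.0% of the 31-base windows of the listed transcript occur in no other annotated transcript, against 51.3% for *Col1a2* and 58.9% for *Col3a1*. Reads from the remaining windows could be assigned to isoforms that are not in the tables, and the ratio of these chains therefore includes that assignment.

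Fibrillar genes made up between 58.2% and 69.6% of the summed collagen TPM of a mouse. Beaded-filament genes made up 12.2% to 24.3%, basement-membrane genes 6.45% to 21.4%, fibril-associated genes 1.25% to 4.15%, and epithelial and anchoring genes at most 0.378%. In the authors' mean of natural log estimated counts, *Col3a1* corresponded to a geometric mean of 1952 counts in a DSS library and 1448 in a water library, and *Col6a1* to 269 and 338, whereas *Col14a1* corresponded to 7.62 and 34.3. Values of the low collagens thus rest on few reads. In TPM, *Col3a1* instead had a lower mean after DSS (72.8) than on water (98.9). Counts depend on the depth of the libraries, and are therefore not read as differences between treatments.

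Several collagen genes sit beside each other in GRCm38. *Col4a1* (chromosome 8, 11198423 to 11312826, minus strand) and *Col4a2* (11312805 to 11449287, plus strand) are transcribed away from each other and their starts are 21 bases apart. *Col3a1* (chromosome 1, 45311538 to 45349706, plus strand) is followed by *Col5a2* (45374321 to 45503282, minus strand) after 24615 bases. *Col6a1* (chromosome 10, 76708792 to 76726168) and *Col6a2* (76595762 to 76623630) lie on the minus strand, 85162 bases apart. *Col1a1* (chromosome 11, 94936224 to 94953042, plus strand), *Col1a2* (chromosome 6, 4504814 to 4541544, plus strand) and *Col15a1* (chromosome 4, 47208161 to 47313167, plus strand) lie on other chromosomes. All of these are protein-coding, with 51 exons in *Col1a1* and *Col3a1*, 52 in *Col1a2* and *Col4a1*, and 40 in *Col15a1*.

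RefSeq promoters (GRCm38.p6) were given for 35 of the 44 genes and for 16 of the 20 named ones, without *Col1a1*, *Col5a2*, *Col12a1* and *Col14a1*. Because most of the named genes were high in the same mice, as described below, the 120 bases before the RefSeq start are shown for 3 fibrillar, 1 basement-membrane and 2 beaded-filament genes whose window overlaps no annotated exon. They are written 5′ to 3′ on the strand of the gene, with motif matches in capitals. The motifs searched were CCAAT (reverse complement ATTGG), the GC box GGGCGG (reverse complement CCGCCC) and the TATA box TATAAA (reverse complement TTTATA).

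*Col3a1*, chr1:45311418-45311537, plus strand: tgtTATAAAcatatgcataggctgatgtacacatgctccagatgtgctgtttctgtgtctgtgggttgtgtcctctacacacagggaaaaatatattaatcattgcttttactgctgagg

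*Col5a1*, chr2:27886305-27886424, plus strand: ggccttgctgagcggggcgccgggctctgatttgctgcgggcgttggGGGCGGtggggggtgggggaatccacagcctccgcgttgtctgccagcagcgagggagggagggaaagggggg

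*Col5a3*, chr9:20815068-20815187, minus strand: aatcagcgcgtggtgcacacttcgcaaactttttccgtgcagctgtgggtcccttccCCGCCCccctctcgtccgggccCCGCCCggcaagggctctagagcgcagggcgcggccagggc

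*Col15a1*, chr4:47207892-47208011, plus strand: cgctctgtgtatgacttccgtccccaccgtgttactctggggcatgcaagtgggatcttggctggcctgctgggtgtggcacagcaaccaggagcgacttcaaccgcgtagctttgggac

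*Col6a2*, chr10:76623631-76623750, minus strand: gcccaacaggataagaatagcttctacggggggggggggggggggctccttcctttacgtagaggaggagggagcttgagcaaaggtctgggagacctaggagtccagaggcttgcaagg

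*Col6a3*, chr1:90843972-90844091, minus strand: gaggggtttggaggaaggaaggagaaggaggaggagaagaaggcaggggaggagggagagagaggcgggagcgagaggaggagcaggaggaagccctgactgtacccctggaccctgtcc

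In these windows, *Col3a1* held TATAAA from 117 to 112 bases before the start, *Col5a1* held GGGCGG from 73 to 68 and *Col5a3* held CCGCCC from 63 to 58 and from 41 to 36. None of the 3 motifs was in the windows of *Col15a1*, *Col6a2* and *Col6a3*. The windows of *Col6a5*, *Col8a1*, *Col23a1* and *Col28a1* also overlap no annotated exon but are not shown. Of these, *Col6a5*, a beaded-filament gene, held GGGCGG from 57 to 52 and *Col23a1* held CCGCCC from 11 to 6. *Col8a1* held CCGCCC from 73 to 68, from 66 to 61 and from 23 to 18, and *Col28a1* held no match. *Col6a2* has another RefSeq start, whose window overlaps its own annotated exon, is not shown, and held CCGCCC from 67 to 62, from 15 to 10 and from 11 to 6 bases before that start, the last pair of matches overlapping. No matches overlapped in the sequences shown. Over the 250 bases before the start, searched on both strands, GGGCGG was in 57.9% of 38 collagen promoters and 32.7% of all 32851, CCAAT in 34.2% and 33.9%, and TATAAA in 13.2% and 12.4%. These are counts of letters only.

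Collagen levels spread widely between mice of the same group. Among water-treated controls 1 to 4, summed collagen TPM was 249, 407, 412 and 319. In the mice labelled knockout 1 to 5 on water it was 264, 122, 243, 400 and 189. After DSS it was 294, 85.6 and 155 in controls 1 to 3 and 96.4, 371, 386 and 89.1 in the mice labelled knockout 1 to 4. All 4 groups overlapped. Means were 347 ± 78.0 (SD, n = 4), 244 ± 103 (n = 5), 178 ± 106 (n = 3) and 236 ± 165 (n = 4), and the highest mouse had 3.38 times the lowest on water and 4.51 times the lowest after DSS. In such sorted pools, fewer cells of a type and less RNA per cell cannot be told apart.

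*Col3a1* had 84.0, 148, 133 and 110 TPM in the water-treated controls and 94.0, 44.5, 87.9, 127 and 61.9 TPM in those labelled knockout. After DSS it had 110, 32.2 and 56.6 TPM in controls and 34.5, 126, 120 and 29.4 TPM in mice labelled knockout. The DSS-treated mice labelled knockout fell into a high and a low pair, as they did for the type I chains. *Col1a1* had 6.77 and 5.77 TPM in the low pair (mice 1 and 4) and 32.1 and 24.6 TPM in the high pair, and in controls it had 22.0, 6.56 and 15.0 TPM. On water, *Col1a1* had 21.03, 31.1, 35.8 and 25.7 TPM in controls and 17.3, 8.62, 15.5, 31.4 and 11.5 TPM in mice labelled knockout, and both groups overlapped.

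**Figure D1:**
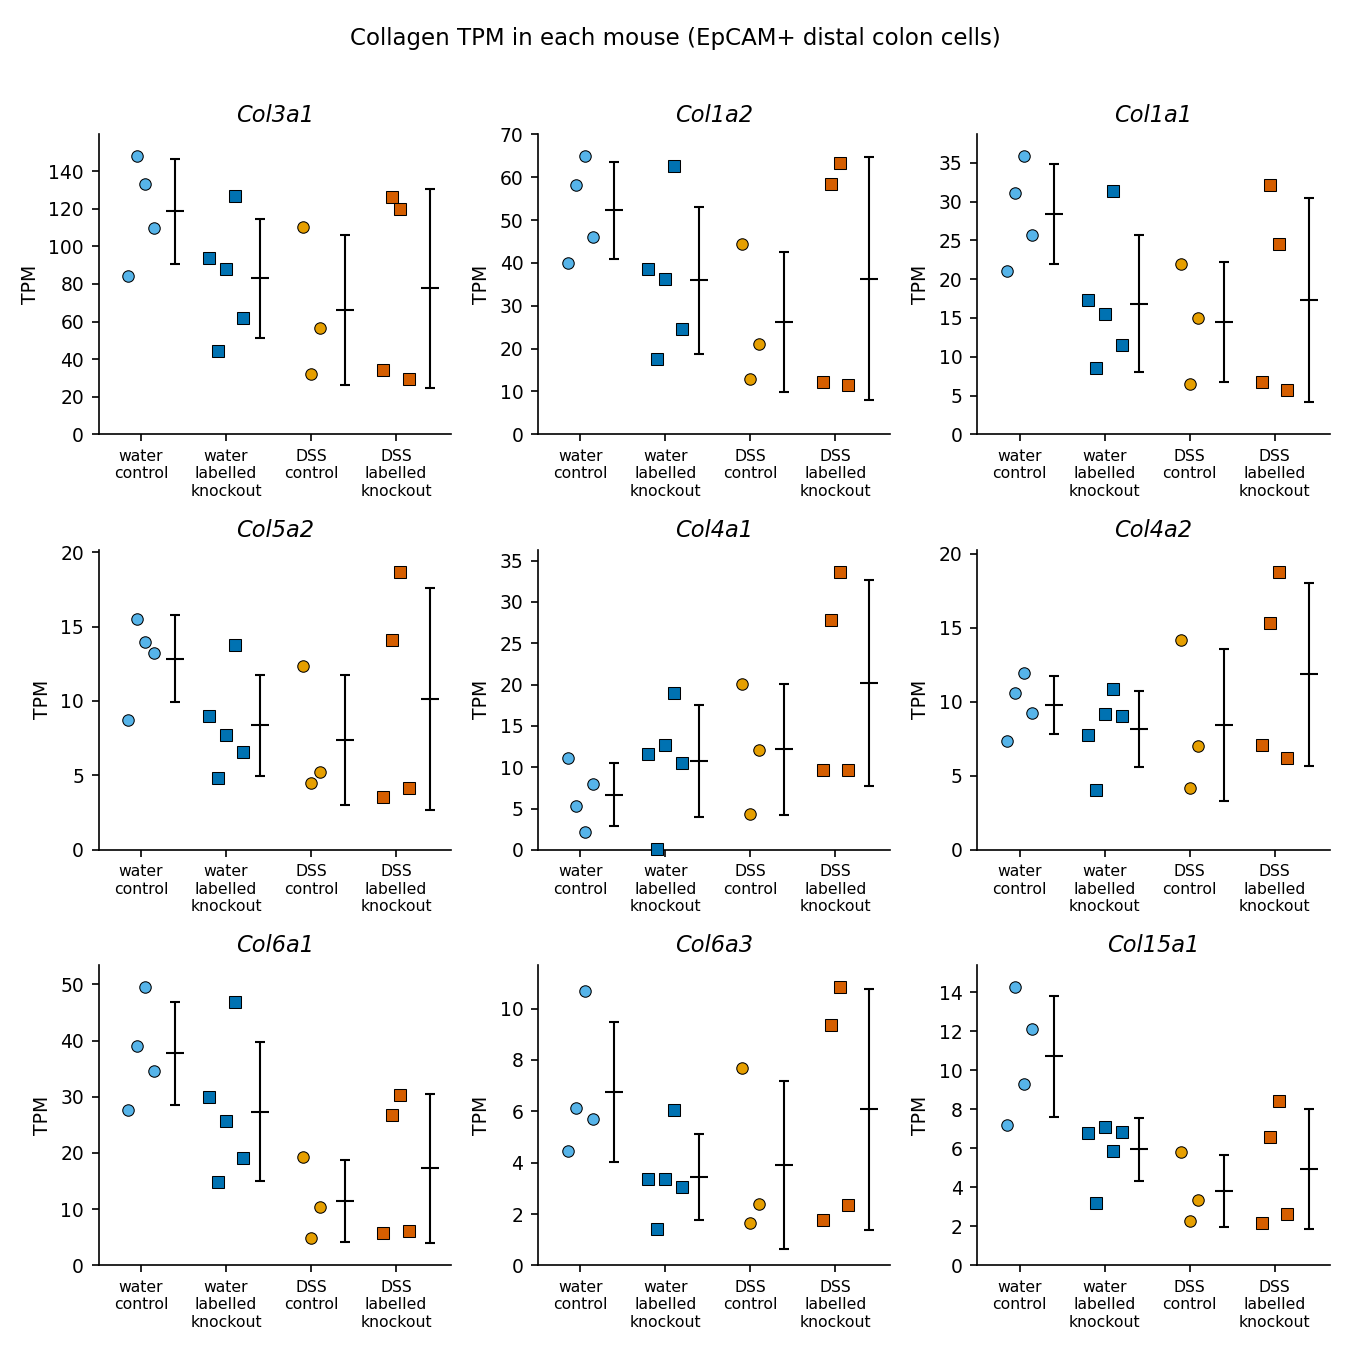
TPM of 9 collagens (vertical axis, linear, from 0) in each of 16 mice by group (horizontal axis). Circles are controls, squares are mice labelled knockout, and bars beside the points give the mean and SD. *Col3a1* ran from 29.4 to 148 TPM, and within each treatment the genotypes overlapped in all panels except *Col15a1* on water, where controls lay between 7.17 and 14.2 TPM and mice labelled knockout between 3.20 and 7.07 TPM.

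The same mice were high for most collagens. After DSS, control 1 and the mice labelled knockout 2 and 3 were the 3 highest of 7 for 13 of 15 collagens with a mean of at least 1 TPM, compared with 6.86% of 10899 genes. This held for 6 of 6 fibrillar, 3 of 3 basement-membrane, 3 of 3 beaded-filament and 1 of 1 fibril-associated genes. The exceptions were *Col8a1*, a short-chain network collagen, and *Col23a1*, a membrane-spanning collagen. The 3 mice were picked as the most frequent top 3 among these same collagens, so the comparison with all genes is not a test. Of the fibroblast markers, 6 of 9 had the same 3 highest mice, as did 4 of 5 smooth muscle and pericyte markers and 4 of 9 endothelial markers, and 0 of 10 epithelial and 0 of 6 leukocyte markers. All 3 mice came from cage d, which also held the low control 2 and the low mouse 4 labelled knockout.

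On water, controls 2 and 3 and the mouse 4 labelled knockout were the 3 highest of 9 for 11 of 16 collagens, compared with 2.39% of 11046 genes. Again 6 of 6 fibrillar and 3 of 3 beaded-filament genes followed this order, but only 1 of 3 basement-membrane genes. The mouse 2 labelled knockout was lowest for 13 of 16 collagens, compared with 15.6% of genes, and for 8 of 9 fibroblast markers. The 3 highest mice and the lowest mouse were again picked as the most frequent among the collagens. Control 3 and the mouse 2 labelled knockout were males of cage a, and the other 2 were females of cage b.

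Summed collagen TPM followed the summed TPM of the 12 fibroblast markers, whose range was 233 to 826 TPM on water and 89.5 to 494 TPM after DSS. Their ratio varied less than either sum. It lay between 0.484 and 0.695 on water and between 0.782 and 0.990 after DSS, and the treatments did not overlap in it. Most of the marker sum came from few genes. *Dcn* alone had a mean of 281 of 525 TPM on water and 119 of 238 TPM after DSS. *Dpt* and *Mgp* had means of 82.3 and 85.2 TPM on water and 32.1 and 46.8 TPM after DSS. *Pdgfra*, a fibroblast receptor, had 2.69 to 8.56 TPM on water and 1.39 to 12.6 TPM after DSS. The part of fibroblast RNA in the collagen levels was not tested. Summed epithelial markers moved by at most 1.39 times between water-treated mice and 1.70 times between DSS-treated mice.

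**Figure D2:**
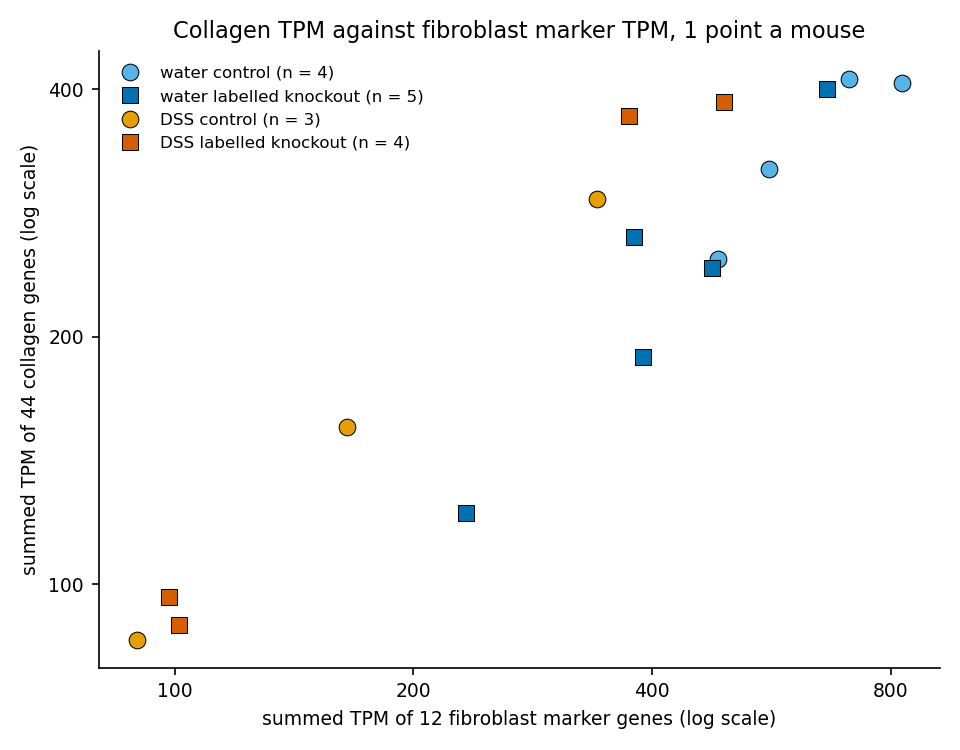
Summed TPM of the 44 collagen genes (vertical axis, log scale) against summed TPM of 12 fibroblast markers (horizontal axis, log scale), with 1 point for each of 16 mice. DSS-treated mice (orange) lie above water-treated mice (blue) of like fibroblast marker TPM, with ratios of 0.782 to 0.990 against 0.484 to 0.695.

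This comparison asks whether loss of Tnfr2 from the epithelium changes RNA levels during repair. No collagen was called between genotypes after DSS. Of 15 collagens tested, 0 were called at an adjusted p under 0.05 by limma, where 0.00918% of 10899 genes were called, and 0 had an unadjusted p under 0.05, where 2.65% of genes did. Groups overlapped for all 15, and 3.68% of all genes did not overlap. Fibrillar (6 of 6), basement-membrane (3 of 3) and beaded-filament (3 of 3) genes had log2 fold changes above 0 in the mice labelled knockout. The median over the collagens was 0.26, beside 0.02 over all genes, of which 47.2% were below 0. Of 9 fibroblast markers, 7 were above 0 and 2 below (median 0.26). All 6 tested genes for collagen processing and crosslinking were above 0 (median 0.29). The part of fibroblast RNA in these differences was not tested.

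*Col4a1*, a type IV chain, had the largest log2 fold change of the collagens. It had 20.1, 4.32 and 12.1 TPM in controls and 9.61, 27.9, 33.7 and 9.65 TPM in mice labelled knockout, and both ranges overlapped widely. The fitted log2 fold change of 0.69 had a standard error of 0.60 (adjusted p = 1.00 by limma, exact permutation p = 0.371). *Col3a1* had a log2 fold change of 0.10 (standard error 0.64) and *Col1a1* one of 0.05 (standard error 0.65), both with adjusted p = 1.00 by limma. *Col6a1* had 19.3, 4.82 and 10.3 TPM against 5.75, 26.8, 30.4 and 6.03 TPM, with a log2 fold change of 0.37 (standard error 0.69). The sign of *Col4a1* was the same with any 1 mouse left out (0.14 to 1.14), whereas that of *Col1a1*, *Col3a1* and *Col6a1* turned. Without control 2, the log2 fold changes of *Col1a1*, *Col3a1* and *Col6a1* were -0.40, -0.33 and -0.09. Without the mouse 2 labelled knockout they were -0.35, -0.23 and 0.05, and without the mouse 3 labelled knockout they were -0.22, -0.21 and -0.01. *Col23a1* had the lowest value, -0.29 (standard error 0.34), from 2.27, 0.782 and 0.840 TPM in controls and 0.863, 1.45, 0.461 and 0.609 TPM in mice labelled knockout. With 3 mice against 4, the smallest p that the exact test allows is 0.0286.

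The direction differed between cages. In cage d, which held 2 controls and 3 mice labelled knockout, 2 of 15 collagens were lower in the mice labelled knockout, with a median log2 fold change of 0.52, while 43.4% of all genes were lower. In cage c, with 1 mouse of each genotype, 13 of 15 were lower, with a median of -0.46, while 53.9% of all genes were lower. Collagens were high and low in the same mice, so these counts rest on few mice and are not independent. With cage as a covariate, 0 collagens were called.

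In the uninjured colon, most collagens had lower mean levels in the mice labelled knockout, but none was called. Of 16 collagens tested, 0 had an adjusted p under 0.05 by limma, where 0.00905% of 11046 genes were called, and 4 had an unadjusted p under 0.05, where 5.28% of genes did. Log2 fold changes were below 0 for 15 of 16 collagens, where 49.8% of all genes were. Their median was -0.61, beside 0.00 over all genes, and adjusted p-values lay between 0.865 and 0.953.

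*Col15a1*, a basement-membrane zone collagen, was the only one whose groups did not overlap, where 1.55% of all genes did not. It had 7.17, 14.2, 9.31 and 12.1 TPM in controls and 6.78, 3.20, 7.07, 5.85 and 6.84 TPM in mice labelled knockout. The lowest control exceeded the highest mouse labelled knockout by only 0.10 TPM. The fitted log2 fold change of -0.75 had a standard error of 0.25 (unadjusted p = 0.0135 and adjusted p = 0.865 by limma), and the exact permutation p was 0.00794, the lowest value this design can give with 4 and 5 mice. No more than 1.87% of the windows in the listed *Col15a1* transcript occur in no other annotated transcript, and 8 other isoforms overlap it, so the assignment of reads between isoforms bears on its values too.

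The others with an unadjusted p under 0.05 were *Col1a1* (log2 fold change -0.82, standard error 0.32), *Col6a3* (-0.82, 0.32) and *Col5a2* (-0.60, 0.27), each with adjusted p = 0.865 by limma. *Col6a3*, the large chain of type VI, had 4.45, 6.13, 10.7 and 5.70 TPM in controls and 3.38, 1.40, 3.38, 6.07 and 3.05 TPM in mice labelled knockout. *Col5a2*, a chain of the type V collagen that regulates fibril thickness, had 8.71, 15.5, 14.0 and 13.2 TPM against 9.02, 4.80, 7.71, 13.8 and 6.60 TPM. In each of these genes the mouse 4 labelled knockout lay within the control range. *Col3a1* had a log2 fold change of -0.57 (standard error 0.30), *Col6a1* one of -0.53 (0.31) and *Col14a1* one of -1.07 (0.56), none with an unadjusted p under 0.05.

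*Col4a1* was the exception in direction, with 11.1, 5.34, 2.16 and 7.99 TPM in controls and 11.6, 0.163, 12.6, 19.0 and 10.5 TPM in mice labelled knockout. Its log2 fold change was 0.32 (standard error 0.80) and turned to -0.05 without control 3. *Col4a2*, its partner chain, had 7.34, 10.6, 11.9 and 9.25 TPM against 7.74, 4.02, 9.17, 10.9 and 9.05 TPM. The ratio of *Col4a1* to *Col4a2* thus ran from 0.0405 to 1.75 on water, while it stayed between 1.03 and 1.81 after DSS. Only 2.20% of the windows of the listed *Col4a1* transcript occur in no other annotated transcript, against 77.3% for *Col4a2*, and 7 other isoforms overlap it, so the assignment of reads between isoforms bears on the *Col4a1* values.

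**Figure D3:**
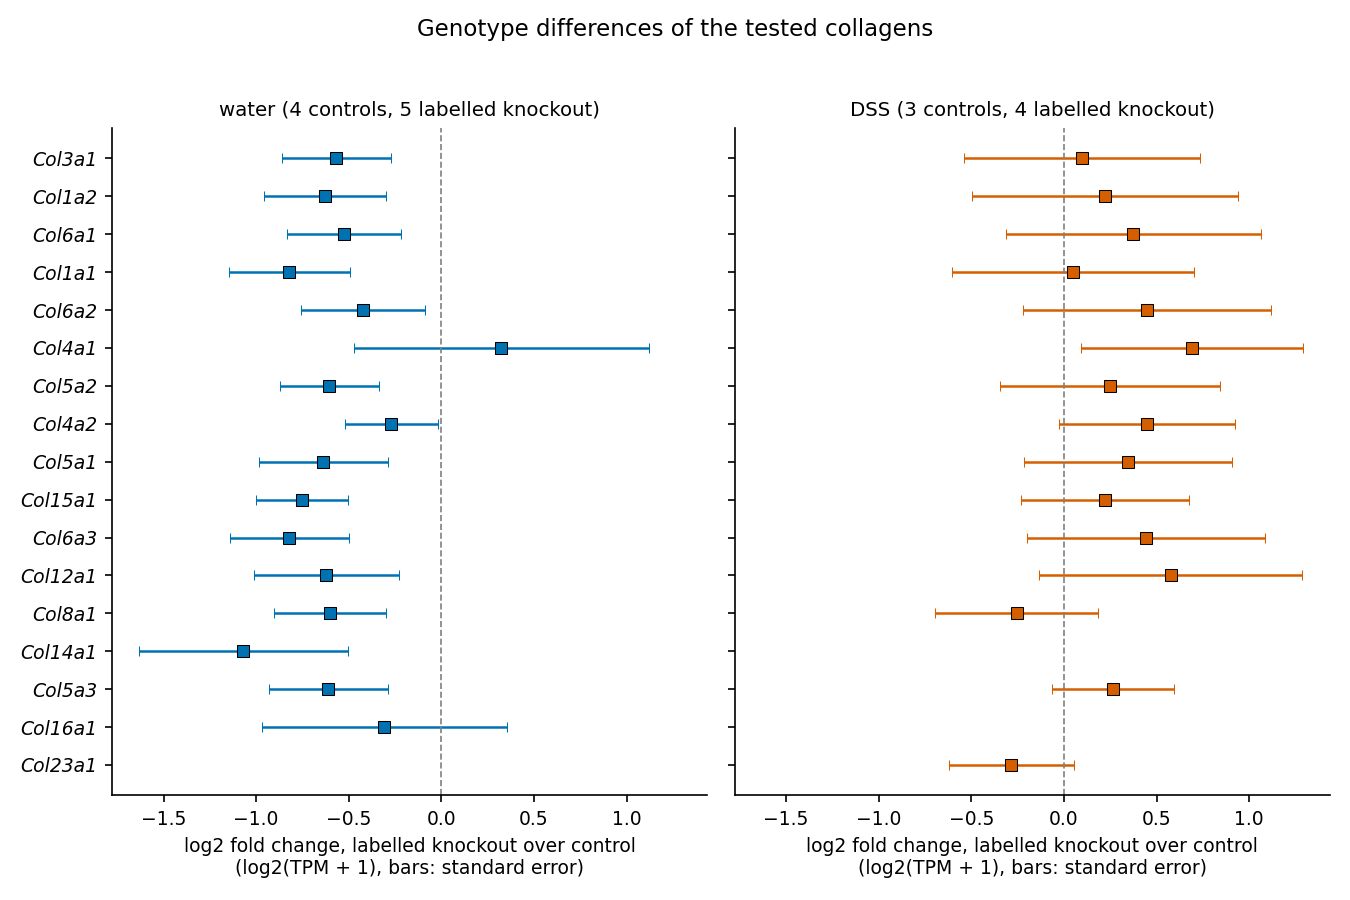
Log2 fold change on the log2(TPM + 1) scale, mice labelled knockout over controls (horizontal axis), for each tested collagen (rows, most abundant on top), on water (left) and after DSS (right). Bars are standard errors from limma. On water 15 of 16 points lie below 0 and after DSS 13 of 15 lie above it, and 0 genes were called in either.

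The direction on water was the same in both cages, but collagens were high and low in the same mice, so these counts are not independent. The mouse 2 labelled knockout, 1 of 2 such mice in cage a, was the lowest on water for 13 of 16 collagens. In cage a (males, 2 controls and 2 mice labelled knockout) 16 of 16 collagens were lower, with a median log2 fold change of -0.70, while 51.6% of all genes were lower. In cage b (females, 2 and 3) 15 of 16 were lower, with a median of -0.45, while 48.2% of genes were lower. For *Col15a1* the differences were -0.68 and -0.90, and for *Col1a1* they were -1.10 and -0.64. The fibroblast markers moved with the collagens. All 9 tested had log2 fold changes below 0 (median -0.62), 3 of them (*Dpt*, *Fbln2* and *Mgp*) with an unadjusted p under 0.05 and 0 called, while the median over 10 epithelial markers was -0.02. Their summed level was 484, 826, 709 and 562 TPM in controls and 380, 233, 476, 665 and 390 TPM in mice labelled knockout. The part of fibroblast RNA in this result was not tested.

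Without the mouse 4 labelled knockout, which was high for most collagens, 11 of 16 had an unadjusted p under 0.05, where 6.93% of all genes did in the same fit, and without control 1, 6 did (6.85% of genes). Without control 2 or control 3 only 1 did (3.88% and 3.71% of genes), and without the mouse 2, 3 or 5 labelled knockout 2 did (4.18%, 4.36% and 5.73%). Collagens were called in none of these fits. Between cages, and therefore sexes, 16 of 16 collagens were higher in cage b (median log2 fold change 0.38, genotype as a covariate), with 0 called, where 0.0362% of genes were called, 49.7% were lower and 1.79% did not overlap between cages. All 16 collagens overlapped. Only *Col15a1* had an unadjusted p under 0.05 (log2 fold change 0.50, adjusted p = 0.704 by limma), where 6.83% of genes did.

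Levels across the tables were set side by side without a test. Over all mice, 0 of 15 collagens had every DSS-treated mouse above or below every water-treated mouse, either in TPM as deposited, where 18.9% of 11247 genes were above and 4.16% below, or after one rescaling of all 16 mice, where 4.52% and 6.96% were. Among controls alone, 0 of 15 collagens were above in all DSS-treated mice and 6 were below (*Col5a1*, *Col5a3*, *Col6a1*, *Col6a2*, *Col14a1* and *Col15a1*), where 31.0% of all genes were above and 8.12% below. After rescaling, 9 were below, where 13.9% of genes were. As deposited and without DSS-treated control 1, 14 of 15 were below in place of 6, where 10.6% of all genes were. In mice labelled knockout, 0 collagens were above or below, as deposited (31.4% and 10.1% of all genes) or rescaled (17.4% and 17.8%).

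Within a mouse, the make-up of the collagen RNA can be compared whatever the scaling. The type VI chains *Col6a1* and *Col6a2* took a smaller share of it after DSS. They were the only 2 of 15 collagens whose shares did not overlap between treatments. Of 11247 genes divided by the same sum, 2.36% were below and 2.38% above. Collagens are part of this sum and other genes are not, so the percentage over all genes is not a like background. Divided by *Col3a1*, 2 of the 14 other collagens were below and 0 above (2.41% and 3.02% of all genes). Divided by the summed fibrillar genes, 2 of the 9 collagens outside that sum were below and 0 above (2.36% and 2.29%). Both denominators are parts of the collagen sum, so these counts are not independent of the first. *Col6a1* took 9.59% to 12.1% of collagen TPM on water (median 11.1%) and 5.63% to 7.87% after DSS (median 6.67%). *Col6a2* took 6.70% to 10.7% on water (median 8.46%) and 3.86% to 5.67% after DSS (median 4.32%). Every DSS-treated mouse, of either genotype, had smaller shares than every water-treated mouse, and this held within females too, since each DSS-treated mouse was female.

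*Col6a3*, which joins both chains in the type VI trimer, did not share this pattern. It took 1.15% to 2.59% of collagen TPM on water and 1.55% to 2.80% after DSS. The ratio of *Col6a3* to *Col6a1* was 0.161, 0.157, 0.216 and 0.165 in water-treated controls and 0.113, 0.0948, 0.131, 0.130 and 0.159 in those labelled knockout. After DSS it was 0.399, 0.345 and 0.232 in controls and 0.306, 0.349, 0.356 and 0.392 in mice labelled knockout, all above every water-treated mouse. Of the windows of the listed *Col6a3* transcript, 5.90% occur in no other annotated transcript, against 85.55% for *Col6a1* and 34.55% for *Col6a2*. The assignment of reads between isoforms thus bears on these values. Of 105 pairs of the 15 collagens, 16 (15.2%) had ratios that did not overlap between treatments, and *Col6a1* or *Col6a2* was in 15 of them. The remaining pair was *Col15a1* to *Col4a2*, at 0.538 to 1.34 on water and 0.304 to 0.535 after DSS.

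The shares of the fibrillar chains overlapped between treatments. *Col3a1* took 31.6% to 36.5% of collagen TPM on water and 31.1% to 37.6% after DSS, *Col1a2* 13.0% to 16.1% and 12.7% to 16.4%, and *Col1a1* 6.07% to 8.71% and 6.36% to 9.67%. All fibrillar genes together took 58.2% to 66.3% on water and 60.3% to 69.6% after DSS. Basement-membrane genes took 6.45% to 14.7% on water and 13.3% to 21.4% after DSS, with overlap of the mouse 5 labelled knockout on water with DSS-treated mice. *Col4a1* took 0.134% to 5.57% and 5.05% to 10.8%, and *Col4a2* 2.60% to 4.79% and 4.14% to 7.33%. Each overlapped between treatments through single mice. Without DSS-treated control 2, every DSS-treated mouse was above in *Col4a1*, and without the mouse 5 labelled knockout on water, in *Col4a2*.

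**Figure D4:**
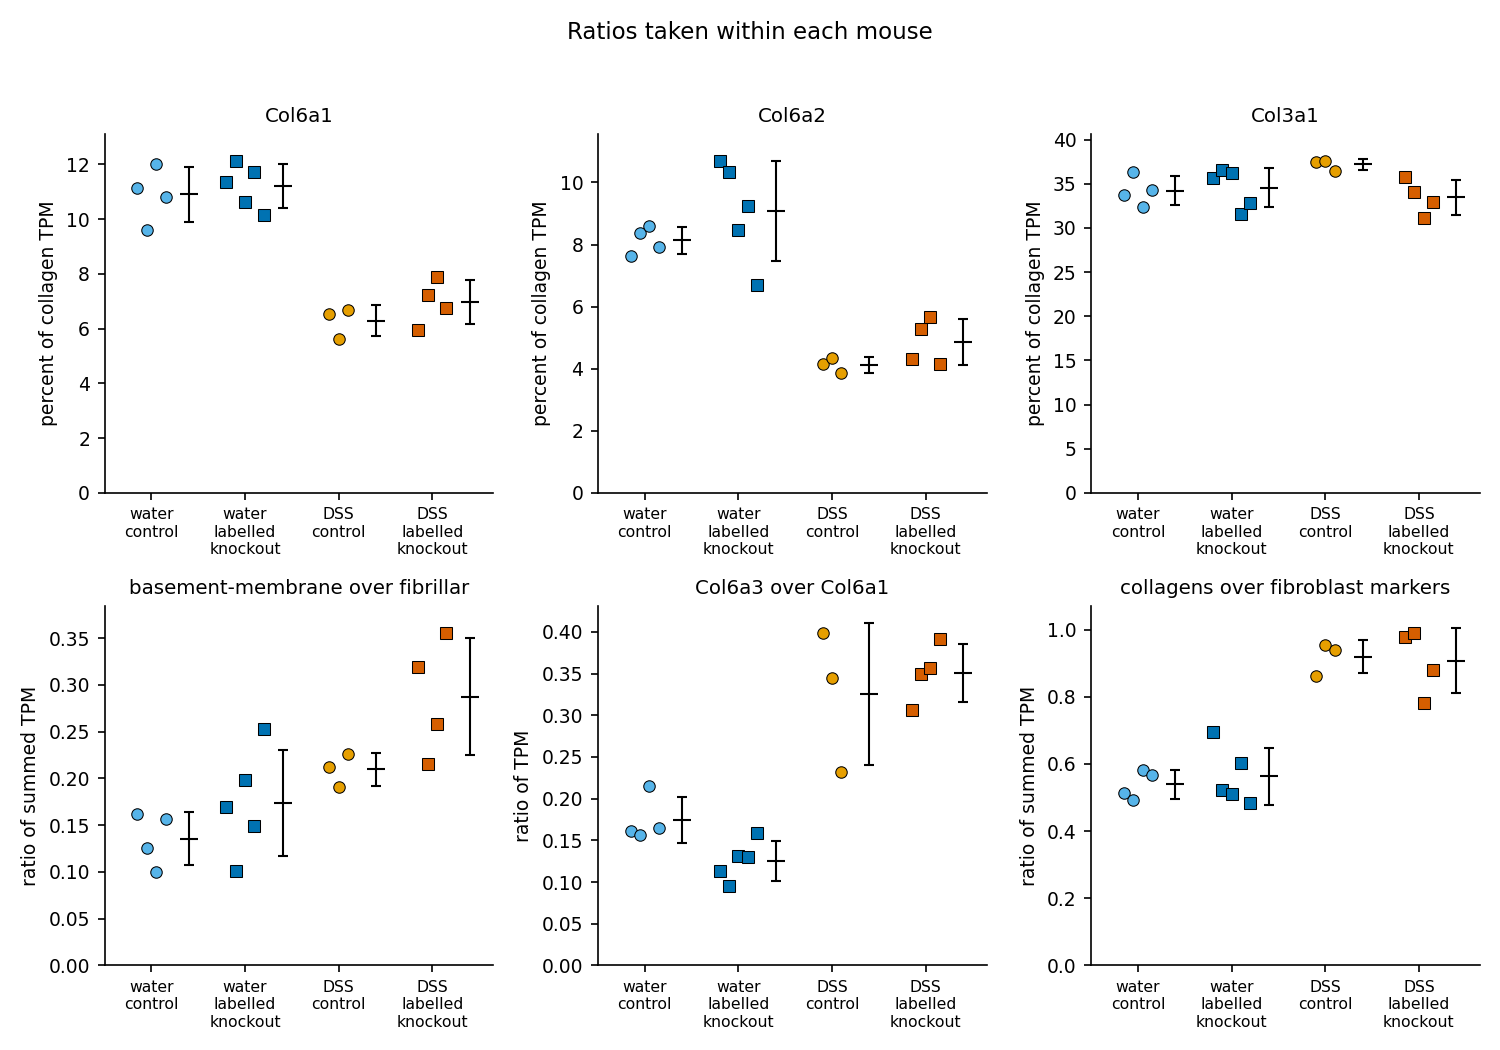
Ratios formed within each of 16 mice (vertical axes, linear, from 0) by group (horizontal axis), with the mean and SD beside the points. The shares of *Col6a1* and *Col6a2* are lower in every DSS-treated mouse than in every water-treated mouse, the share of *Col3a1* overlaps, and the ratios of *Col6a3* to *Col6a1* and of collagens to fibroblast markers are higher in every DSS-treated mouse.

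Decorin (*Dcn*), a small proteoglycan that binds collagen fibrils and a fibroblast marker, had 2.36 to 3.31 times the TPM of *Col3a1* within a mouse on water and 1.34 to 2.04 times after DSS, without overlap. The fibroblast marker sum, of which *Dcn* was the largest part, was also used in place of the collagen sum. Over it, 0 of 15 collagens were below in all DSS-treated mice and 4 were above (*Col1a2*, *Col4a1*, *Col4a2* and *Col5a2*). Of all genes, 13.4% were above and 1.52% below. Leukocyte markers moved with treatment, at 816 to 1685 summed TPM on water and 14.7 to 50.2 TPM after DSS, and *Ptprc*, the pan-leukocyte phosphatase, had 7.65 to 29.2 and 0 to 4.88 TPM. *Acta2*, an actin of smooth muscle and pericytes, had 14.3 to 27.2 TPM on water and 4.68 to 18.5 TPM after DSS. *Pecam1*, of endothelium, had 0 to 6.70 and 0 to 2.32 TPM. Other markers of both lists differed in direction. Summed endothelial markers had 19.7 to 57.5 TPM on water and 20.4 to 57.2 TPM after DSS. Summed smooth muscle and pericyte markers had 31.4 to 68.1 and 21.3 to 68.9 TPM, and both sums overlapped. The part of these cell types in the collagen shares was not tested.

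Genes that fold, modify, process and bind collagens were taken from lists. Of 19 genes for folding and modification, 14 were tested after DSS and 15 on water, and 0 were called for genotype. The most abundant were *Ppib*, a prolyl isomerase (272 to 431 TPM over the 16 mice), *P4hb*, the shared subunit of prolyl hydroxylase (200 to 348), *Creb3l1*, a transcription factor of secretory cells (56.7 to 199), and *Mia3*, a cargo receptor for procollagen (11.4 to 43.4). *P4hb* and *Ppib* are used by many secreted proteins besides collagens, and their ranges were narrow beside those of the collagens. *Mia3* had 11.4 to 22.9 TPM on water and 30.4 to 43.4 TPM after DSS as deposited, without overlap, but overlapped after rescaling. *Plod1*, a lysyl hydroxylase of procollagen, had 6.79 to 11.7 TPM on water and 2.05 to 4.78 TPM after DSS, without overlap on either scale, the only one of 15 folding genes of which this held. As deposited 1 of the 15 was above and 1 below in all DSS-treated mice, where 18.9% and 4.16% of all genes were. After rescaling 0 were above and 4 below, where 4.52% and 6.96% of all genes were.

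Of 12 genes for processing and crosslinking, 6 (DSS) and 8 (water) were tested and 0 were called. All 6 tested after DSS had the same 3 highest mice as the collagens. *Pcolce*, an enhancer of the C-proteinase, had 13.3, 25.1, 33.2 and 21.2 TPM in water-treated controls and 16.4, 5.15, 14.2, 16.2 and 14.0 TPM in those labelled knockout. *Bmp1*, that proteinase, had between 0.81 and 5.38 TPM in the 16 mice. The lysyl oxidases *Loxl1* and *Loxl2*, which crosslink fibrils, had 1.68 to 8.31 and 2.22 to 10.3 TPM on water, with log2 fold changes of -0.66 and -0.72 in the mice labelled knockout and unadjusted p under 0.05, but adjusted p = 0.865 by limma. On water all 8 tested genes had log2 fold changes below 0, with a median of -0.53.

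Of 10 collagen receptors, 6 (DSS) and 8 (water) were tested and 0 were called. *Itga2*, the integrin chain that pairs with *Itgb1* to bind collagen, had 3.87, 4.48, 4.63 and 4.46 TPM in water-treated controls and 3.29, 3.52, 3.501, 4.08 and 5.26 TPM in those labelled knockout. After DSS it had 21.4, 26.3 and 13.3 TPM in controls and 21.4, 22.6, 22.6 and 23.3 TPM in mice labelled knockout. The treatments did not overlap, as deposited or rescaled, and genotypes differed by a log2 fold change of 0.19 after DSS and -0.13 on water, with adjusted p = 1.00 and 0.887 by limma. *Itgb1* had 51.4 to 76.4 TPM on water and 77.9 to 124 TPM after DSS, without overlap as deposited but with overlap after rescaling. Of 6 receptors, 2 were above in all DSS-treated mice as deposited and 1 after rescaling, where 18.9% and 4.52% of all genes were. On both scales 0 were below, where 4.16% and 6.96% of all genes were. *Ddr1*, the discoidin receptor of epithelium, had 11.9 to 24.1 and 6.91 to 33.1 TPM, and *Ddr2*, that of mesenchyme, 1.19 to 4.24 and 0.897 to 5.403 TPM, both with overlap.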

How the data were processed

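Per the labels and the study's methods, EpCAM+ cells were sorted from distal colon, polyA RNA was sequenced in single-end reads, and transcripts were quantified with kallisto and sleuth (mm10 in the submitters' notes). The authors deposited TPM per mouse, in 1 table for each treatment, restricted to principal isoforms, and a mean natural log of estimated counts over the mice of a table. Columns of the authors' own genotype test were not used. Per the labels about 10000000 reads were recovered per sample. TPM keeps no count per gene and mouse, so no counting intervals were formed.

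TPM was summed per gene. Within a table, genes averaging 1 TPM or more were tested with limma 3.58.1 (R 4.3.3; trend) on log2(TPM + 1), with Benjamini-Hochberg adjustment over all genes and a threshold of 0.05. Log2 fold changes are on that scale, which understates changes of low genes. Exact permutation tests of single collagens were two-sided. The fit was also run on simulated data with known changes. The outcome of that run is not given here, so the power to call collagens is not stated. Tables were normalized separately, so DSS and water were compared only by whether mice overlapped, as deposited, rescaled over 16 mice, and as ratios within a mouse, with other denominators added after the data were seen. Named collagens had a mean of at least 1 TPM in at least 1 group. Members and lists were chosen with earlier results of these data known. The labels give each sample as a separate mouse. Loci are from GENCODE M21 (GRCm38), which held all 44 genes. Python 3.11.15 with pandas 2.3.3, numpy 2.4.6, scipy 1.17.1 and matplotlib 3.10.9 was used. Alternatives were another pseudocount (0.1), no filter or a mean of at least 5 TPM, rescaling, quantile normalization, array quality weights, cage or replicate number in the fit, and each mouse left out.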

Additional observations from a re-analysis of the deposited data

Results flagged for a closer look

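Of 72 groups of 4 or 5 mice examined, 4 held a mouse far from the others of its group. Chance gives about 5%, and the count is near that share. All were mice labelled knockout on water. Mouse 4 had 6.231 TPM of *Col12a1* (the others 0.8925 to 2.044), 7.566 TPM of *Col14a1* (0.585 to 1.054) and 3.805 TPM of *Col5a3* (1.144 to 1.913). Mouse 5 had 4.814 TPM of *Col16a1* (0 to 0.08781), a gene at 0 in 6 of the 16 mice.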

How the results depend on the processing

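No collagen was called for genotype after DSS, genotype on water, or cage on water, under any alternative run, and the lowest adjusted p by limma was 0.837, 0.708 and 0.632. With 1 mouse left out, log2 fold changes after DSS ran from -0.40 to 0.42 for *Col1a1*, -0.33 to 0.55 for *Col3a1*, -0.087 to 0.81 for *Col6a1* and -0.0575 to 0.36 for *Tnfrsf1b*, which was -0.0013 with array quality weights. On water *Col4a1* ran from -0.0471 to 1.04. The cause was not tested. The other 251 values of single genes kept their direction and their side of the threshold. Same-numbered mice did not deviate together (mean correlation of deviations -0.13 over 3 pairs after DSS and 0.04 over 4 on water), so the numbers do not pair the mice. With the replicate block, 0 collagens were called in both genotype comparisons, and 0 rather than 4 had an unadjusted p under 0.05 on water.

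Among controls, collagens above in all DSS-treated mice numbered 2 with no filter (21.7% of all genes) and 0 to 1 with 1 mouse left out (34.2% to 38.6% of genes), and those below 6 to 14 (8.54% to 16.7%). In mice labelled knockout those below numbered 0 to 1 (10.6% to 12.1% of genes). Of shares of collagen TPM, 0 to 1 were above with 1 mouse left out (2.34% to 8.62% of genes), and over fibroblast marker TPM 4 were above and 0 below. Values of low collagens are limited by depth, as no counts per mouse were used.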
